A study of Mus musculus with 18 samples.

Results

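The genes described here were the EGR and NR4A immediate early factors of mouse keratinocytes and their close companions, Egr1, Egr2, Egr3, Nr4a1, Nr4a2, Nr4a3, Ier2, Ier3, Nab1 and Nab2. These 10 genes were found by symbol among the 52636 genes of the count table. The family was chosen by a readout of these samples, since Egr2 had been seen strongly lower in tumors, whereas the other 9 genes entered by family name. The values of Egr2 in tumors, against skin or between genotypes, are therefore given as a description, with no test.

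Keratinocytes were taken from Zfp36 fl/fl mice and from Zfp36 ΔK14 mice, in which Cre driven by a keratin 14 promoter removes the floxed Zfp36 gene from cells that express or once expressed that promoter. Both genotypes carried the floxed alleles on a C57BL/6 background, and the controls were littermates without excision. Zfp36 encodes tristetraprolin (TTP), a protein that binds AU-rich sequences in mRNAs and promotes their decay. Mice were 8 weeks old at the start. The Mock groups were not exposed to the carcinogen. The Treated and Tumor groups received DMBA, a mutagen, in 2 applications of 200 nmol per the study's methods. Repeated 6.5 nmol applications of TPA followed, a phorbol ester that activates protein kinase C. Treated samples were skin next to papillomas, although the labels call their cells tumoral, and Tumor samples were papillomas. Per the study's methods, live EpCAM+ CD45- CD140a- CD31- cells were sorted. Each of the 6 groups had 3 libraries, but the third Mock ΔK14 column was identical to the second and was used once, which left 17 libraries and n = 2 for Mock ΔK14. Nothing in the labels ties a library to 1 mouse, so the p-values measure the spread between these samples.

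The libraries held between 2808550 and 9617985 counts, the lowest being replicate 1 of the fl/fl tumors. Levels are given as CPM, the read counts of a gene scaled to the TMM-adjusted size of its library. Zfp36 itself averaged 497, 376 and 217 CPM in fl/fl mock, treated and tumor cells, and 27.9, 23.9 and 13.8 CPM in the matching ΔK14 groups. Keratinocyte markers were abundant (Krt5 from 1430 to 12100 CPM over all libraries) and the leukocyte gene Ptprc did not exceed 1.51 CPM in any library.

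EGR proteins are zinc finger transcription factors that bind a GC-rich DNA site and are switched on within minutes of growth factor or kinase signaling. NAB1 and NAB2 bind EGR proteins and can repress them, and Nab2 is itself a known EGR target, so that the pair forms a feedback loop. NR4A1, NR4A2 and NR4A3 are orphan nuclear receptors induced by the same kind of signal and by cyclic AMP. IER2 and IER3 are small immediate early proteins, the latter known as a modulator of survival and NF-κB signaling. Messages of immediate early genes are typically short-lived. In skin, Egr2 is best known from the hair follicle.

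AU-rich heptamers (TATTTAT in DNA letters) are shown because they are the kind of sequence that TTP recognizes. For each gene, the scan covered its longest 3′ untranslated region in GENCODE M21 (GRCm38). No heptamer was found in Egr1, Egr2, Egr3, Nr4a1 or Ier2. Ier3 had 4 heptamers, Nr4a3 had 2, and Nr4a2, Nab1 and Nab2 had 1 each. In all, 5 of the 10 genes had at least 1 heptamer, compared with 27.7% of the 20856 genes scanned. The windows of 30 bases below run 5′ to 3′ along the mRNA, with heptamers in capitals. A match describes letters and is not evidence of binding.
Ier3, chr17:35822485-35822514, plus strand: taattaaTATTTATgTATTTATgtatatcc
Ier3, chr17:35822531-35822560, plus strand: ggtgtatgtaaTATTTATtctaacttatgc
Ier3, chr17:35822586-35822615, plus strand: tgtaacacagaTATTTATtacgatttatag
Nr4a2, chr2:57107544-57107573, minus strand: tattttgtgccTATTTATgaataaatatta
Nr4a3, chr4:48084754-48084783, plus strand: agctttgcctgTATTTATtgcaagaccacc
Nr4a3, chr4:48084887-48084916, plus strand: ggttacatataTATTTATaatgtgtctttt
Nab1, chr1:52458536-52458565, minus strand: gaggtaggctaTATTTATggcagctgctta
Nab2, chr10:127660945-127660974, minus strand: gtacagtagatTATTTATtttgttattttg

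Promoters were shown where they held a binding sequence of the factors that act up- or downstream of this family. RefSeq (GRCm38.p6) promoter windows, from 250 bases before to 50 bases after a gene start, were at hand for 7 of the 10 genes, not for Egr1, Egr3 or Ier2. Both strands were searched for the CArG box of SRF, the CRE of CREB (TGACGTCA), the EGR site (GCGTGGGCG) and the NBRE of NR4A receptors (AAAGGTCA). CArG boxes were present in 1.63% of all 32851 windows and EGR sites in 0.612%. The windows of Egr2, which has several annotated starts, held 2 CArG boxes, and that of Nab1 held 2 EGR sites on opposite strands. None of the 7 genes had a CRE, present in 1.79% of windows, or an NBRE, present in 1.51%, which says nothing about binding elsewhere. The motif is in capitals.
Egr2, CArG box, chr10:67537484-67537513, plus strand: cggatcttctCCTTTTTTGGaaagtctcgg
Egr2, CArG box, chr10:67537787-67537816, plus strand: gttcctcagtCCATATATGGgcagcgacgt
Nab1, EGR site, chr1:52500538-52500567, minus strand: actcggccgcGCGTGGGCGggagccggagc
Nab1, EGR site, chr1:52500570-52500599, minus strand: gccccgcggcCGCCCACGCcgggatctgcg

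All 10 genes were expressed in every library. Per kilobase of exon, mean levels in fl/fl mock cells were highest for Egr1 (268 CPM per kb), followed by Nr4a1 (147), Ier2 (139) and Ier3 (98.1 CPM per kb). Egr2 (44.4), Egr3 (35.4), Nab1 (33.9), Nr4a3 (22.5) and Nab2 (16.2 CPM per kb) came next, and Nr4a2 was lowest at 6.95 CPM per kb. In ΔK14 tumors, Ier3 led with 796 CPM per kb, ahead of Nab1 (75.6) and Egr1 (69.8 CPM per kb), and Egr2 was last at 3.12 CPM per kb. Neighbors in these orders were not tested against each other.

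**Figure D1:**
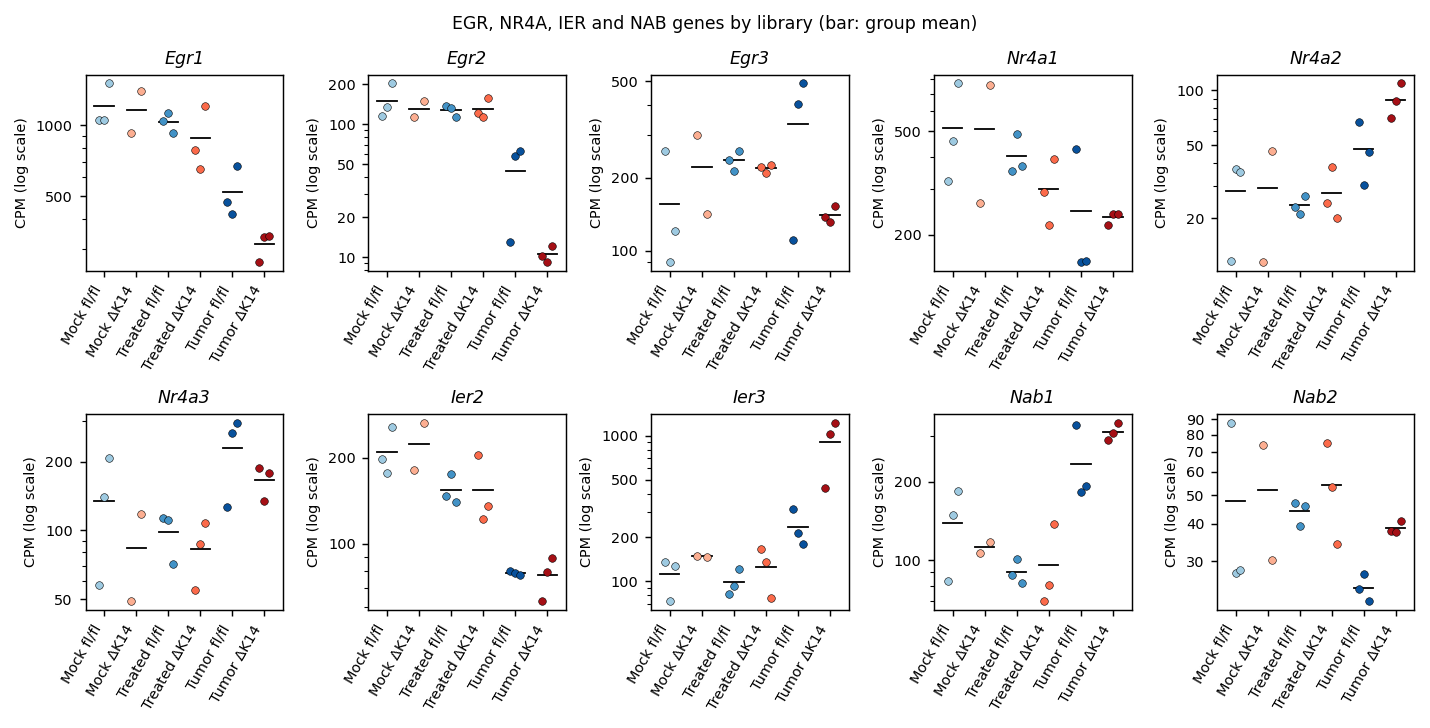
Level of each gene in CPM (log axis) in the 17 libraries, with fl/fl groups in blue and ΔK14 groups in red; points are libraries and bars are group means. Egr2 and Ier2 sat lower in all 6 tumor libraries than in every skin library, whereas Ier3 sat higher in all 6; for Egr1, 1 fl/fl tumor (669 CPM) lay above 1 ΔK14 treated library (654 CPM).

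In skin, the loss of Zfp36 did not move any of the 10 genes past the test. Differences were called at an adjusted p under 0.05 (edgeR quasi-likelihood test, Benjamini-Hochberg over all genes) and a fold change over 2. Between the mock genotypes 0 of 10 genes were called, where 0% of the 15920 genes tested were, with 0 of 10 at an unadjusted p under 0.05, beside 253 of all genes. With the replicate number as a block, 110 genes were called there, still 0 of these 10. Between the treated genotypes, 0 of 10 genes were called against 0.00616% of all genes, again with 0 at an unadjusted p under 0.05, beside 901 of 16232 genes. Egr2 averaged 128 ± 12.7 CPM (SD, n = 3) in treated fl/fl cells and 131 ± 24.4 CPM (SD, n = 3) in treated ΔK14 cells. The largest estimate in treated skin was that of Nr4a1, lower in ΔK14 by 0.45 on the log2 scale (SE 0.24), with an adjusted p of 0.904.

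DMBA/TPA treatment alone gave the same picture. From mock to treated skin, 0 of 10 genes were called in fl/fl mice and 0 of 10 in ΔK14 mice, where 0% of all genes were called in each comparison. Log2 fold changes of the 10 genes lay between -0.61 and 0.60 in fl/fl mice and between -0.78 and 0.05 in ΔK14 mice. Mock libraries varied, however. Replicate 1 of either mock genotype had Egr3 at 257 and 300 CPM, compared with 90.2 to 142 CPM in the other 3 mock libraries. Those libraries also held the highest Nab2 (87.7 and 73.9 CPM) and the lowest Nr4a3 (57.4 and 49.0 CPM) of their groups. The summed level of 7 basal keratinocyte genes was 3310 and 3400 CPM in these 2 libraries and 15400 to 17300 CPM in the others; its part in the differences was not tested.

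Egr2 set the family apart in tumors. It was detected at 115, 134 and 203 CPM in fl/fl mock cells, 113 and 150 CPM in ΔK14 mock cells, 137, 133 and 113 CPM in fl/fl treated cells and 121, 113 and 159 CPM in ΔK14 treated cells. In fl/fl tumors it stood at 13.0, 57.6 and 63.3 CPM, and in ΔK14 tumors at 10.3, 9.26 and 12.2 CPM. No tumor library overlapped the skin libraries. On the log2 scale, the difference between tumor and treated skin was -1.51 (SE 0.48) in fl/fl mice and -3.72 (SE 0.21) in ΔK14 mice, and against mock skin it was -1.77 (SE 0.56) and -3.72 (SE 0.27). These values led to the choice of the family and carry no test. In sorted populations such as these, fewer cells that express a gene and less RNA per cell cannot be told apart.

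Egr1, the most abundant factor of the family, was also lower in tumors. It ranged from 926 to 1500 CPM in mock cells and from 654 to 1200 CPM in treated cells. Tumor libraries held 473, 421 and 669 CPM in fl/fl mice and 264, 337 and 338 CPM in ΔK14 mice. Tumor and skin libraries did not overlap within either genotype. In ΔK14 mice Egr1 fell 2.98-fold from treated skin to tumor (log2 -1.58, SE 0.24, adjusted p = 0.00205) and 3.95-fold from mock skin (adjusted p = 0.0122), by edgeR. In fl/fl mice it fell from treated skin with an edgeR adjusted p of 0.0211 and a fold change right at the limit of 2 (SE 0.24 on the log2 scale), and the estimate against mock skin, -1.23 (SE 0.31), had an edgeR adjusted p of 0.0655.

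Egr3 did not follow Egr1 and Egr2. Treated skin was uniform, with 213 to 258 CPM in fl/fl mice and 209 to 225 CPM in ΔK14 mice. The fl/fl tumors held 111, 402 and 490 CPM, so that 1 library lay below and 2 lay above all treated ones. The ΔK14 tumors held 138, 132 and 153 CPM, below every treated library. In ΔK14 mice Egr3 differed from treated skin by -0.73 on the log2 scale (SE 0.15, edgeR adjusted p = 0.00743), a fold change of 1.66 and thus short of a call, whereas the fl/fl estimate was 0.48 (SE 0.47, edgeR adjusted p = 0.477). Against mock skin, it differed by -0.75 (SE 0.35, edgeR adjusted p = 0.181) in ΔK14 and 1.07 (SE 0.61, edgeR adjusted p = 0.305) in fl/fl mice.

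Of the corepressor genes, Nab1 was called higher in tumors in 3 of 4 comparisons with skin and Nab2 was called in none. Nab1 stood at 70.0 to 138 CPM in treated cells, at 329, 182 and 193 CPM in fl/fl tumors and at 288, 307 and 336 CPM in ΔK14 tumors. It rose from treated skin 2.54-fold in fl/fl mice (edgeR adjusted p = 0.00998) and 3.04-fold in ΔK14 mice (edgeR adjusted p = 0.00219). Against mock skin Nab1 rose 2.59-fold in ΔK14 mice (edgeR adjusted p = 0.0198) and its fl/fl estimate was 0.72 on the log2 scale (SE 0.37, edgeR adjusted p = 0.266). Nab2 held 24.1, 27.2 and 22.0 CPM in fl/fl tumors, below the 39.5 to 46.9 CPM of fl/fl treated skin (log2 -0.88, SE 0.19, edgeR adjusted p = 0.0167, 1.84-fold). In ΔK14 tumors Nab2 stood at 37.8, 37.6 and 41.0 CPM, within the range of ΔK14 treated skin (log2 -0.58, SE 0.28, edgeR adjusted p = 0.131). Nab2 overlaps Stat6, Nemp1 and an antisense gene on the opposite strand, and since the counting strand is not given in the sources used here, its counts may include reads from them.

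The 3 NR4A receptors did not move together. Nr4a2 was the lowest of them in skin, at 20.1 to 38.1 CPM in treated cells. It stood at 67.2, 30.5 and 45.9 CPM in fl/fl tumors and at 70.7, 86.9 and 109 CPM in ΔK14 tumors. All 3 ΔK14 tumors lay above every other library. From treated skin, Nr4a2 rose 2.98-fold in ΔK14 mice (edgeR adjusted p = 0.00412), and in fl/fl mice its difference of 0.97 (SE 0.30, edgeR adjusted p = 0.0493) was a 1.96-fold change, just under the limit. Against mock skin, the estimates were 0.73 (SE 0.49, edgeR adjusted p = 0.379) in fl/fl and 1.52 (SE 0.56, edgeR adjusted p = 0.11) in ΔK14 mice, neither past the test.

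In both genotypes, Nr4a3 was higher in tumors than in treated skin. It rose 2.31-fold from treated skin in fl/fl mice, from 113, 111 and 71.5 CPM to 127, 267 and 296 CPM (edgeR adjusted p = 0.0364). In ΔK14 mice it went from 54.7, 86.9 and 108 CPM to 187, 135 and 178 CPM (1.88-fold, edgeR adjusted p = 0.0246), without overlap but short of the fold limit. Against mock skin, its estimates passed no test, at 0.75 (SE 0.51, edgeR adjusted p = 0.391) in fl/fl mice, where the groups overlapped, and 0.91 (SE 0.41, edgeR adjusted p = 0.166) in ΔK14 mice. Nr4a1, the most abundant of the 3, had negative estimates in tumors that passed no test. It held 426, 157 and 158 CPM in fl/fl tumors and 218, 240 and 241 CPM in ΔK14 tumors, compared with 218 to 490 CPM in treated cells, and the edgeR adjusted p-values against skin ran from 0.0958 to 0.204.

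IER2 and IER3 genes went opposite ways. Ier2 stood at 177 to 266 CPM in mock cells and 122 to 205 CPM in treated cells. In tumors it was 80.3, 79.1 and 77.7 CPM in fl/fl mice and 62.8, 79.7 and 89.3 CPM in ΔK14 mice, almost the same level in both genotypes. Against mock skin, Ier2 fell 2.73-fold in fl/fl mice (edgeR adjusted p = 0.0275) and 3.09-fold in ΔK14 mice (edgeR adjusted p = 0.0182). Against treated skin it fell 2.13-fold in ΔK14 mice (edgeR adjusted p = 0.0075), and the fl/fl change of 1.98-fold (edgeR adjusted p = 0.00611) lay just under the fold limit.

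Ier3 showed the largest rise among the 10 genes in ΔK14 mice, whereas in fl/fl mice the estimate of Nab1 was larger from treated skin and that of Egr3 from mock skin. It ranged from 73.1 to 166 CPM over all skin libraries. The fl/fl tumors held 312, 215 and 179 CPM, and the ΔK14 tumors held 441, 1030 and 1230 CPM. All tumors were above all skin libraries, and all ΔK14 tumors were above all fl/fl tumors. From treated skin, Ier3 rose 2.33-fold in fl/fl mice (log2 1.22, SE 0.26, edgeR adjusted p = 0.0143) and 6.58-fold in ΔK14 mice (log2 2.72, SE 0.42, edgeR adjusted p = 0.00217). From mock skin, it rose 5.65-fold in ΔK14 mice (edgeR adjusted p = 0.0226) and its fl/fl estimate was 1.03 (SE 0.34, edgeR adjusted p = 0.111).

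**Figure D2:**
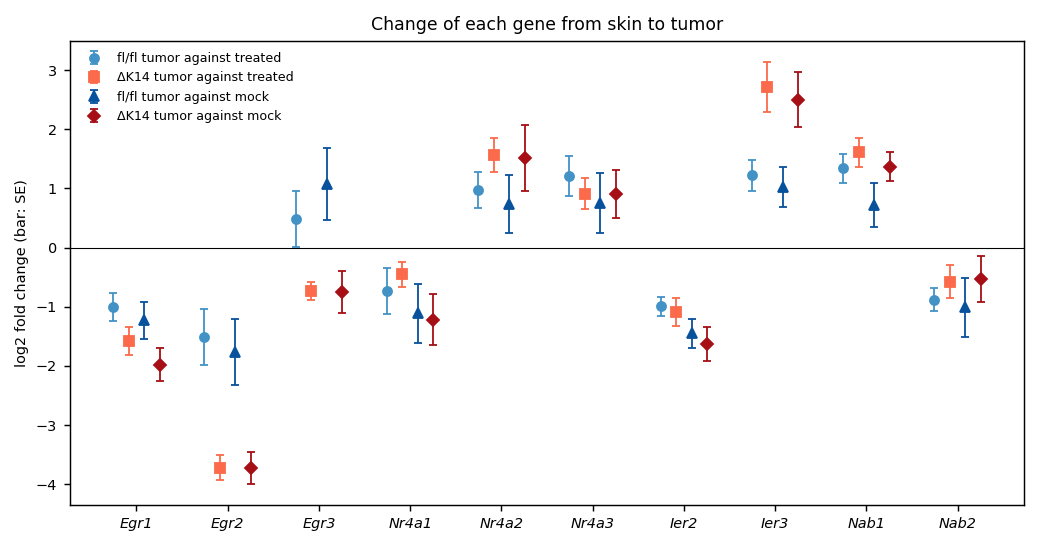
Log2 fold change from skin to tumor for each gene, against treated or mock skin in fl/fl (blue) and ΔK14 (red) mice; bars are standard errors. Egr2, Egr1 and Ier2 lay below 0 and Ier3 and Nab1 above 0 in all 4 comparisons, and Egr3 was positive in fl/fl and negative in ΔK14 mice.

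Counted over the 9 genes other than Egr2, calls were as follows. From treated skin to tumor in fl/fl mice, 3 rose (Nr4a3, Ier3, Nab1) and 1 fell (Egr1), where 7.5% of all genes tested were called higher and 10.5% lower. In ΔK14 mice 3 rose (Nr4a2, Ier3, Nab1) and 2 fell (Egr1, Ier2), where 10.5% of all genes were called higher and 15.5% lower. From mock skin, 0 rose and 1 fell in fl/fl mice (Ier2), beside 2.22% higher and 1.88% lower over all genes, and 2 rose (Ier3, Nab1) and 2 fell (Egr1, Ier2) in ΔK14 mice, beside 7.05% higher and 7.22% lower. The comparisons with mock and treated skin share their tumor libraries and are not independent.

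The calls differed in firmness. From treated skin in ΔK14 mice, Egr1, Nr4a2, Ier3 and Nab1 kept their calls when each of the 6 libraries was left out in turn, whereas Ier2 lost its call without treated replicate 1 or tumor replicate 1. The fl/fl calls rested on more particular libraries. Nab1 lost its call without treated replicate 1, and Ier3 without treated replicate 1 or 2 or tumor replicate 1. Nr4a3 kept it only without tumor replicate 1 and Egr1 only without tumor replicate 3. Against mock skin, with n = 2 in the ΔK14 mock group, the calls of Egr1, Ier2 and Nab1 were lost without any 1 of the 3 ΔK14 tumors, that of Ier3 without tumor replicate 2 or 3, and the fl/fl call of Ier2 without mock replicate 2 or 3 or tumor replicate 2 or 3.

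Between tumors of the 2 genotypes, the largest estimates were those of Egr2 and Ier3, and none of the 9 genes other than Egr2 was called. Egr2 was lower in ΔK14 tumors, by a log2 difference of -2.24 (SE 0.52), a 4.73-fold change. It is given without a test because its tumor values chose the family. Ier3 was higher by 1.80 (SE 0.38), 3.48-fold, with an edgeR adjusted p of 0.183. Egr3 differed by -1.40 (SE 0.47, edgeR adjusted p = 0.265), Egr1 by -0.88 (SE 0.24, edgeR adjusted p = 0.226), Nr4a2 by 0.77 (SE 0.30, edgeR adjusted p = 0.320) and Nab2 by 0.53 (SE 0.20, edgeR adjusted p = 0.304). In all, 0 of these 9 genes were called, where 0.0284% of the 14067 genes tested were. Ier3, Egr3, Egr1, Nr4a2 and Nab2 had an unadjusted edgeR p under 0.05, as did 1975 of the 14067 genes. Beside Egr2, the 2 groups of tumors did not overlap for Egr1 (lower in ΔK14) and for Nr4a2, Ier3 and Nab2 (higher), among the 9 genes, while 17.9% of all genes did not overlap. Ier2 and Nab1 differed least in absolute terms together with Nr4a1, at -0.17 (SE 0.19), 0.27 (SE 0.25) and -0.21 (SE 0.38).

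A single fl/fl tumor weighed on this comparison. Replicate 1, the library with the fewest counts, resembled the ΔK14 tumors in Egr2 (13.0 CPM), Egr3 (111 CPM) and Nab1 (329 CPM), and differed from the other fl/fl tumors in Nr4a1 (426 CPM). Its 7 basal keratinocyte genes summed to 33700 CPM, close to the 26800 to 28800 CPM of the ΔK14 tumors, and compared with 9320 and 9200 CPM in the other fl/fl tumors. Its 7 sebaceous gland genes summed to 631 CPM, within the 564 to 775 CPM of the ΔK14 tumors, whereas the other fl/fl tumors held 4390 and 7930 CPM. The part of this makeup in the gene differences was not tested. Without replicate 1, which leaves 2 fl/fl tumors, Egr3, Nr4a2 and Ier3 passed both limits among the 9 genes other than Egr2, where 16.9% of all genes did. Replicate 1 was set apart here by values of this same family, so these calls are a description only. Egr2 then differed by -2.62, Egr3 by -1.77, Nr4a2 by 1.13 and Ier3 by 2.07, and Nr4a1 turned from -0.21 to 0.46.

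Whether the step from skin to tumor differed between genotypes was tested as an interaction for the 9 genes other than Egr2. Relative to treated skin, 0 of 9 genes were called, beside 0.0118% of all genes. The estimates were -1.20 for Egr3 (SE 0.53, edgeR adjusted p = 0.362) and 1.52 for Ier3 (SE 0.52, edgeR adjusted p = 0.269), the 2 genes with an unadjusted p under 0.05. Over all genes, 2243 of 17017 had such a p. Relative to mock skin, 0 of 9 genes were called, where 0% of all genes were. Egr3 and Ier3 again had an unadjusted p under 0.05, with estimates of -1.79 (edgeR adjusted p = 0.607) and 1.47 (edgeR adjusted p = 0.591), beside 1423 of 17388 genes. For Egr2 the estimates were -2.20 (SE 0.56) and -1.93 (SE 0.68), given without a test because they are made from the values that chose the family.

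The genotype difference in tumors was set beside the heptamer counts. The 5 genes without a heptamer had log2 differences from -2.24 to -0.17, the lowest being that of Egr2, whose tumor values chose the family. Egr3 was next at -1.40. Egr2 carries no test, and the other genes of this set were not past the test. Of these, Nr4a1 (-0.21, SE 0.38) turned to 0.46 without fl/fl tumor replicate 1 and Ier2 (-0.17, SE 0.19) to 0.01 without the low-count filter. Of the 5 genes with 1 or more, 4 had positive differences (Nab1, Nab2, Nr4a2 and Ier3) and Nr4a3 had -0.61. The gene with 4 heptamers, Ier3, had the largest value of 1.80. The medians of the 2 sets were -0.88, with Egr2 included, and 0.53. Over all genes tested, the medians hardly differed, at 0.03 for the 7843 genes without a heptamer and 0.01 for the 3591 genes with one, and 52.8% and 50.8% had a positive difference. Among these 10 genes, Egr2 carries no test because its tumor values chose the family, and none of the others was called. The comparison is therefore a description of these estimates only. A link between heptamers and the genotype difference was not tested.

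**Figure D3:**
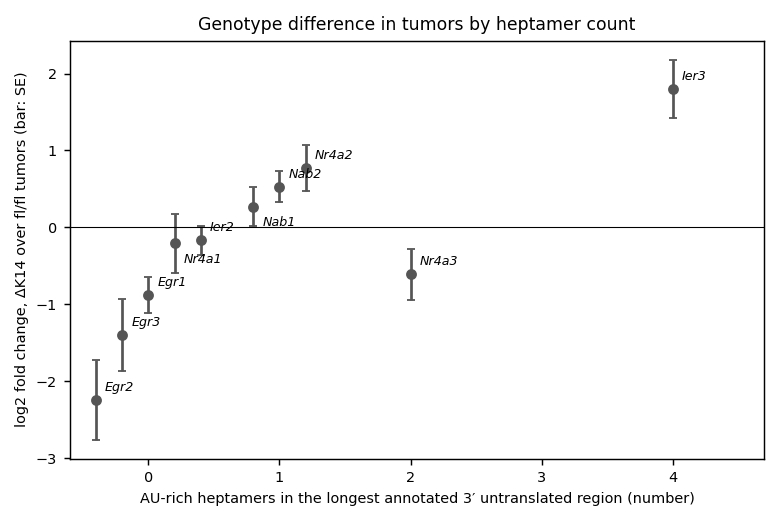
Log2 fold change between ΔK14 and fl/fl tumors (y axis, bars are standard errors) against the number of TATTTAT heptamers in the longest 3′ untranslated region of GENCODE M21 (x axis, points spread sideways within a count), for the 10 genes. Ier3, with 4 heptamers, is highest at 1.80 and Nr4a3, with 2, lies at -0.61; of the genes without a heptamer, Egr2 is lowest at -2.24, and Nr4a1 (-0.21) and Ier2 (-0.17) lie within 1 SE of 0 and change sign under an alternative (0.46 without fl/fl tumor replicate 1 and 0.01 without the low-count filter).

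Among 40 further targets of MAPK and SRF signaling, 10 rose and 3 fell from treated skin to tumor in fl/fl mice and 9 rose and 3 fell in ΔK14 mice, with median log2 changes of 0.38 and 0.24 where those of all genes were -0.02 and -0.03. Over all genes, 7.5% were called higher and 10.5% lower in fl/fl mice, and 10.5% and 15.5% in ΔK14 mice. From mock skin, 3 rose and 1 fell in fl/fl mice, beside 2.22% and 1.88% of all genes, and 4 rose and 3 fell in ΔK14 mice, beside 7.05% and 7.22%. The median log2 changes from mock skin were 0.05 and -0.12, where those of all genes were -0.05 and -0.06. The most abundant members varied. Fos, a subunit of the AP-1 factor, differed from treated skin by -0.53 (SE 0.44) in fl/fl and -0.49 (SE 0.27) in ΔK14 tumors, neither past the test (edgeR adjusted p = 0.399 and 0.193). Its partner Jun differed by -0.85 and -0.92, at edgeR adjusted p-values of 0.0186 and 0.00875 but short of the fold limit. Relative to mock skin, Jun was called lower in ΔK14 tumors (-1.24, edgeR adjusted p = 0.0409) but not in fl/fl tumors (-0.99, edgeR adjusted p = 0.112). Klf6, a zinc finger factor, rose from treated skin by 1.20 (SE 0.19, edgeR adjusted p = 0.00606) in fl/fl mice, with 0.94 (SE 0.20, edgeR adjusted p = 0.00735) in ΔK14 mice. Fosb gave 0.16 (SE 0.34) and 0.24 (SE 0.34) from treated skin, neither past the test. Between the tumor genotypes 0 of the 40 genes were called, with a median of 0.03.

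Of 15 dual specificity phosphatase and Sprouty family genes tested, which restrain the MAPK cascade, 4 rose and 1 fell from treated skin in fl/fl mice, beside 7.5% and 10.5% of all genes, and 4 rose and 2 fell in ΔK14 mice, beside 10.5% and 15.5%. Dusp7, a phosphatase that acts on ERK, rose by 1.59 (SE 0.22, edgeR adjusted p = 0.00385) and 2.11 (SE 0.24, edgeR adjusted p = 0.000687) on the log2 scale. Dusp6, another ERK phosphatase, gave 0.93 (SE 0.41) and 0.70 (SE 0.35), and Dusp1 gave 0.18 (SE 0.34) and 1.02 (SE 0.44), none past the test. Of the upstream SRF, ELK, CREB and MEF2 factors, 0 of 15 were called from treated skin in fl/fl mice, and 1 rose and 1 fell of 14 in ΔK14 mice, beside the same shares of all genes. Creb1 gave 0.12 (SE 0.20) and 0.10 (SE 0.20). Of 6 RXR partners of NR4A receptors and NAB cofactors tested, 0 were called in any comparison, Chd4, the nucleosome remodeler that NAB2 recruits, giving -0.15 (SE 0.20) and -0.07 (SE 0.20) from treated skin.

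Genes of the hair follicle were also lower in tumors. From treated skin to tumor, 1 of 25 rose and 19 fell in fl/fl mice (median log2 -3.84), and 1 of 24 rose and 17 fell in ΔK14 mice (median -3.83), where 7.5% and 10.5% of all genes were called higher and 10.5% and 15.5% lower. Their summed level over 25 genes was 2050 to 4000 CPM in skin and 1020 to 1430 CPM in tumors. Lhx2, a defining factor of follicle stem cells, averaged 55.3 and 43.9 CPM in treated cells of the 2 genotypes and 1.29 and 0.397 CPM in their tumors. The exception that rose in fl/fl mice was Sox9 (log2 1.76, SE 0.28, edgeR adjusted p = 0.00569). From mock skin, fewer were called: 1 of 21 rose and 2 fell in fl/fl mice (median -3.07), and 2 of 18 rose and 8 fell in ΔK14 mice (median -3.1). Over all genes, 2.22% and 7.05% were called higher there and 1.88% and 7.22% lower. Within fl/fl tumors, the follicle sum spanned 1190 to 1430 CPM, Lhx2 0 to 3.36 CPM and Egr2 13.0 to 63.3 CPM. Within ΔK14 tumors, the sum spanned 1020 to 1180 CPM, Lhx2 0.363 to 0.447 CPM and Egr2 9.26 to 12.2 CPM. The sum includes Sox9. The part of follicle cells in the Egr2 level was not tested.

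**Figure D4:**
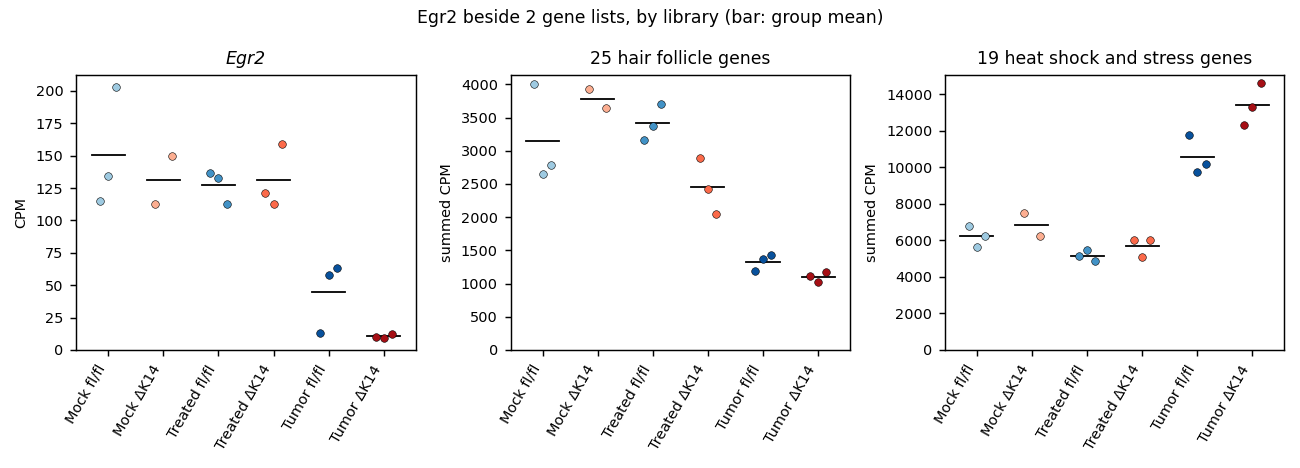
Egr2 in CPM beside the summed CPM of 25 hair follicle genes and of 19 heat shock and stress genes in the 17 libraries; points are libraries and bars are group means. In all tumors Egr2 and the follicle sum (1020 to 1430 CPM) were below every skin library, and the stress sum (9770 to 14600 CPM) was above every skin library.

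Genes that respond to heat shock and to tissue dissociation, which also induces immediate early genes, were higher in tumors. Their summed level over 19 genes was 4880 to 7490 CPM in skin and 9770 to 14600 CPM in tumors. From treated skin, 7 of 19 rose in fl/fl mice and 11 of 19 in ΔK14 mice, with 0 falling in either, where 7.5% and 10.5% of all genes were called higher and 10.5% and 15.5% lower. Hspa8, a chaperone gene, rose by 1.38 (SE 0.23, edgeR adjusted p = 0.00623) and 1.36 (SE 0.20, edgeR adjusted p = 0.00182). From mock skin, only 1 of 19 rose in fl/fl mice and 3 of 19 in ΔK14 mice, with 0 falling in either. Over all genes, 2.22% and 7.05% were called higher there and 1.88% and 7.22% lower. In all tumor libraries, where these genes were higher, Egr2 and Ier2 were below and Ier3 above every skin library. Egr1, Nr4a2 and Nab1 did not separate all tumors from all skin. For example, Nr4a2 stood at 30.5 CPM in fl/fl tumor replicate 2 and at 46.9 CPM in ΔK14 mock replicate 2. The part of dissociation in these levels was not tested, and the sorting methods of the study describe a collagenase I digestion of tumors before sorting.

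Other cell types were measured beside the family because Egr2 is also a master regulator of myelinating Schwann cells. Of 10 Schwann cell genes, the defining factor Sox10 did not exceed 1.97 CPM in any library, below Egr2 in all of them, and the list summed to 43.9 to 170 CPM in skin and 60.6 to 162 CPM in tumors. From treated skin, 0 of 5 tested members rose and 1 fell in fl/fl mice, and 2 rose and 0 fell in ΔK14 mice, the myelin genes Mbp (log2 2.13, SE 0.49, edgeR adjusted p = 0.011) and Pmp22 (log2 2.11, SE 0.35, edgeR adjusted p = 0.0029). The background was 7.5% of genes higher and 10.5% lower in fl/fl mice, and 10.5% and 15.5% in ΔK14 mice. The part of these cells in the Egr2 level was not tested. Fibroblast genes (8) summed to 405 to 1750 CPM in skin and 37.4 to 409 CPM in tumors, and melanocyte genes (7) to 55.5 to 463 CPM in skin and 18.0 to 45.7 CPM in tumors. Leukocyte genes (12) summed to 11.6 to 219 CPM in skin, 20.2 to 38.1 CPM in fl/fl tumors and 70.5 to 103 CPM in ΔK14 tumors. Endothelial genes (7) stayed between 8.96 and 40.3 CPM and muscle genes (8) between 13.7 and 76.6 CPM. Suprabasal keratinocyte genes (9) ranged from 1110 to 10800 CPM in skin and from 1220 to 3170 CPM in tumors.

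The genes whose pattern lay nearest to that of Egr2 were named by the root mean square difference of their centered log2 CPM over the 17 libraries, among 18252 genes. They were Gm44699 (0.39), Egfl6 (0.43), Zfp704 (0.45), Selenop (0.46) and Gm36328 (0.48). Zfp704, a zinc finger gene, averaged 48.3 CPM in treated and 25.4 CPM in tumor cells of fl/fl mice, and 36.5 and 4.96 CPM in those of ΔK14 mice. Selenop, which encodes a secreted selenium carrier, averaged 182 and 40.5 CPM in fl/fl and 142 and 16.9 CPM in ΔK14 mice. None of the other 9 genes was among these 5.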

How the data were processed

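RNA sequencing was performed by the authors on sorted keratinocytes with the Ovation SoLo kit. Per the labels' processing notes, Trimmomatic 0.36, STAR 2.5.3, HTSeq 0.9.1 and DESeq2 were used with mm10; annotation release, strand setting and treatment of duplicates are not given in the sources used here. The authors deposited raw counts per gene for 18 columns, 2 of them identical. From these counts, edgeR 4.0.16 in R 4.3.3 was run on the libraries of the groups compared (filterByExpr, TMM, glmQLFit, glmQLFTest, two-sided), the study's methods naming edgeR, with Benjamini-Hochberg adjustment over all genes. Scripts were tested on simulated data. Alternatives were DESeq2 1.42.0, RLE scaling, no filter, 1 fit of all 17 libraries, a replicate block, leaving out each library, and the identical columns as separate libraries. SE is the fold change over the root of F. The genes and lists were chosen with earlier results of these data known. Named genes were the 10 family genes, Zfp36, the 5 genes nearest to Egr2, and up to 4 genes per list by highest mean CPM; Lhx2, Sox10, Krt5 and Ptprc served as defining markers. Heptamers came from GENCODE M21 and promoters from RefSeq.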

Additional observations from a re-analysis of the deposited data

How the results depend on the processing

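The number of the 10 family genes called (9, without Egr2, wherever tumors were compared) depended on the processing in 6 of the 11 comparisons. Between tumor genotypes it was 0. Ier3 was called there with DESeq2 and in a single fit of all 17 libraries, and Ier3 and Egr3 without the low-count filter. With libraries left out in turn, Egr3, Nr4a2 and Ier3 were called only without fl/fl tumor replicate 1. Egr2 is left out there because its tumor values chose the family. For fl/fl tumors against mock skin the number called was 1, but 2 with DESeq2, 3 without the filter, 2 in the single fit and 0 to 3 with a library left out. For ΔK14 tumors against mock skin it was 4, but 7 without the filter and 0 to 7 with a library left out, the 7 without mock replicate 2, where a lone mock library is assumed to vary like the other group. For fl/fl tumors against treated skin it was 4, but 2 in the single fit and 1 to 3 with a library left out. For treated against mock skin in fl/fl mice it was 0 to 1, and for the interaction with treated skin it was 0, but 2 without the filter and 0 to 1 with a library left out, the 1 (Egr3) without fl/fl tumor replicate 1. For ΔK14 tumors against treated skin it stayed between 4 and 6 with a library left out.

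A fit with the replicate number as a block gave 0 calls for fl/fl tumors against mock skin, 2 for ΔK14 tumors against mock skin and 2 for fl/fl tumors against treated skin, and its other counts stayed within 1.5 times. Same-numbered libraries deviated together between the mock genotypes (r = 0.78 and 0.57 over 18252 genes). Between the treated genotypes they did not (r = -0.17, -0.12 and -0.55). The numbers were therefore not taken to pair the samples throughout, and the unblocked mock test leaves out this shared deviation.

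Signs turned for 3 estimates. Ier2 between tumor genotypes was 0.01 without the filter, Nr4a1 between tumor genotypes ran from -0.44 to 0.46 with a library left out, and Nab2 in ΔK14 tumors against mock skin ran from -0.94 to 0.32. The causes of these changes were not tested. Depth limited fl/fl tumor replicate 1 most, with 2808550 counts.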
